A study of Homo sapiens with 4 samples.

Results

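The accessible chromatin around 8 genes of the epithelial-mesenchymal transition (EMT) was compared between MCF10A cells and their HRAS-transformed derivative. The genes were CDH1, CDH2, VIM, ZEB1, ZEB2, SNAI1, SNAI2 and TWIST1. They were chosen by name from the 20090 protein-coding genes of the annotation, with no cutoff on measured values but with earlier results of these data known. Every peak that lay in one of them, or within 100 kb of its annotated start, was listed by library. Of 60886 regions with a peak in at least 1 library, 45 lay in these windows.

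EMT is a programme by which epithelial cells loosen their junctions and become motile. Its hallmark is the cadherin switch, in which E-cadherin (CDH1), the adhesion protein of epithelial junctions, gives way to N-cadherin (CDH2), while vimentin (VIM), an intermediate filament protein of mesenchymal cells, appears. The transcription factors ZEB1, ZEB2, SNAI1 (Snail) and SNAI2 (Slug) bind short E-box sequences and repress CDH1, and TWIST1 is a basic helix-loop-helix factor that drives the same programme.

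The assay was ATAC-seq: the Tn5 transposase cuts open DNA and leaves adapters there, and a cluster of its insertions is called as a peak. The parental line, MCF10A, comes from human mammary epithelium and is immortalized but not transformed, and it gave 2 libraries. The other group had 2 libraries of the same line with an oncogenic HRAS carrying the G12V change. It is called G12V, the name the study uses. The study's methods state that the HRAS vector was delivered by lentivirus together with a GFP vector that tracked transduction, and that hygromycin then selected the carriers. No cloning step is described, and no parental cells carrying an empty vector are named. Both groups grew in medium with EGF, insulin, hydrocortisone, cholera toxin and horse serum, and both were kept at low passage. The study reports that the G12V cells first stopped growing and resumed growth after a few weeks. The study calls the replicates biological, whereas the labels only number them.

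The lists held 12902 and 34484 peaks for MCF10A replicates 1 and 2, and 14057 and 46698 for G12V replicates 1 and 2. The number of reads is unknown from these lists, so only the number of peaks is given, and whether it followed depth was not tested. In both cell types the replicate 2 list was the longer, and an absent peak in a replicate 1 list can be a locus just under the caller's threshold. Marker genes of the epithelial label were only partly marked by peaks. Of 10 mammary epithelial markers, 3 (KRT17, KRT8 and ITGB4) had a peak at the gene start in any library. With the starts of all annotated transcripts counted there were 6, and KRT5, KRT14, KRT19 and TP63 had none. Of the fibroblast markers, 1 of 5 had a peak at the gene start in any library. So did 1 of 3 endothelial markers in the annotation and 1 of 4 immune markers. At the gene start, 50.3% of all genes had no peak in any library. With all transcript starts these 3 marker counts were 1, 1 and 2, and 11830 of all 20090 genes had a peak in any library.

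Sequence at some of the loci is given first, so that the peaks described afterwards can be read against it. The ZEB1 promoter is shown because its peaks, both weak, were found in MCF10A replicate 2 alone. The remaining windows are the region with the highest score at CDH1, at CDH2 and at ZEB2, with the ZEB2 region that had a peak in every library. Each is hg19 sequence read 5′ to 3′ on the plus strand, and the promoter is the 250 bases before the start of that plus-strand gene. Capitals mark matches to 3 motifs sought on both strands, namely the E-box CACCTG bound by the ZEB and SNAI factors, the AP-1 motif TGANTCA and the TEAD motif GGAATG. On the plus strand the E-box also appears as its reverse complement CAGGTG, and the TEAD motif as CATTCC.
ZEB1 promoter, chr10:31607174-31607423: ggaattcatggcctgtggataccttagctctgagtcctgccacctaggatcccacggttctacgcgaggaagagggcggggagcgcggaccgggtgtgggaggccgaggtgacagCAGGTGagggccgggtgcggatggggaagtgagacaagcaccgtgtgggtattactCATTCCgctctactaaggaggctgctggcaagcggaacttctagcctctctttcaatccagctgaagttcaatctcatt
CDH1 region at -29.6 kb, chr16:68741410-68741709: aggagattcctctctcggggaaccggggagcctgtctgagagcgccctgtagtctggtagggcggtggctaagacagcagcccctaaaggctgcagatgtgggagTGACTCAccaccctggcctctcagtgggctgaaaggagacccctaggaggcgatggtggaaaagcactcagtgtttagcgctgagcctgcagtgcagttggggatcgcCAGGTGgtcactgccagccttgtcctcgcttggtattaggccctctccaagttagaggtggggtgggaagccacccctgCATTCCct
CDH2 region at 62.5 kb, chr18:25695264-25695563: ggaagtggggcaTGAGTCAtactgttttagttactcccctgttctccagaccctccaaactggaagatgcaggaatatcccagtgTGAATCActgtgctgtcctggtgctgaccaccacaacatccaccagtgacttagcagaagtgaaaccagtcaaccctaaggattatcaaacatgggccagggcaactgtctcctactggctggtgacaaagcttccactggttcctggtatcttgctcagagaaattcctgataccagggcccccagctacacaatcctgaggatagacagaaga
ZEB2 region at -32.6 kb, chr2:145311064-145311363: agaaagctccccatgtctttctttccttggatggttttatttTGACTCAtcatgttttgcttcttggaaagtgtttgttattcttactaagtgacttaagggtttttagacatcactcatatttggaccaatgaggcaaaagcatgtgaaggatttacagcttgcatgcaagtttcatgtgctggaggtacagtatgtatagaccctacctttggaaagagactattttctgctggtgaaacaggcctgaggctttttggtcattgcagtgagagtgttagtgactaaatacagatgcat
ZEB2 region at 106 kb, chr2:145172044-145172343: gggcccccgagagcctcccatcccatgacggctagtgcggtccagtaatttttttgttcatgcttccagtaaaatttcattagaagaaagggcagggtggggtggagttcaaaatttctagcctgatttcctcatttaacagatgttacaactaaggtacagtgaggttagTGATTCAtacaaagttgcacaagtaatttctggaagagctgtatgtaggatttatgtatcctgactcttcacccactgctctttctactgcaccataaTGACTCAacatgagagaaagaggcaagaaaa

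Positions are given throughout in kb from the gene start in the direction of transcription, with negative values upstream. The motifs were sought in the 250 bases upstream of 7 of the genes, without CDH1. The ZEB1 promoter held 1 E-box match at -135 bp and the SNAI1 promoter 1 at -146 bp. An E-box was present upstream of 18.5% of all protein-coding genes, against 2 of these 7. The ZEB1 promoter also held the TEAD motif, which 11.0% of all promoters had, and none of the 7 held AP-1, which 5.46% had.

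In the 300 bases at the centre of the best-scoring peak of each region, the E-box was found in 13 of 45 member regions (28.9%) and in 21.4% of all 60886 regions. AP-1 was found in 19 (42.2%) against 35.1% of all regions, and TEAD in 8 (17.8%) against 20.1%. A CTCF motif was present in 5 (11.1%) against 12.2% of all regions, and a p53 motif in 0 against 2.57%. The printed CDH2 region at 62.5 kb and ZEB2 region at 106 kb each carried 2 AP-1 matches and no E-box, and the CDH1 region at -29.6 kb carried AP-1, E-box and TEAD. These are matches of letters in a window and were not tested as binding sites. Median GC content was 51.7% in the member windows and 47.7% in all.

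Across the 8 genes, peaks were few in the replicate 1 lists and more numerous in the replicate 2 lists of both cell types. MCF10A replicate 1 had 5 peaks, MCF10A replicate 2 had 32, G12V replicate 1 had 6 and G12V replicate 2 had 28. MCF10A replicate 2 had a peak in the window of all 8 genes, G12V replicate 2 of 7, and each replicate 1 list of 3. The 3 genes were VIM, ZEB2 and SNAI2 in both cell types, and ZEB1 was the gene without a peak in G12V replicate 2.

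Relative to list length, the same windows held 0.388, 0.929, 0.427 and 0.6 peaks per 1000 listed peaks in MCF10A replicates 1 and 2 and G12V replicates 1 and 2. The mean was 0.658 ± 0.382 in MCF10A and 0.514 ± 0.122 in G12V (SD, n = 2 each). The difference of -0.145 was smaller than the pooled SD of 0.284, and MCF10A replicate 2 alone lay above the other libraries. Between the replicate 1 libraries G12V was higher by 0.0393, and between the replicate 2 libraries the difference was -0.329. When each list was limited to its best 12888 peaks, the size of the shortest list, 5, 6, 5 and 6 peaks remained.

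Peak density was also tested gene by gene. For ZEB2 it was 0.0776 and 0.116 in MCF10A and 0.142 and 0.129 in G12V, higher in G12V. For SNAI2 it was 0.0776 and 0.087 in MCF10A and 0.0712 and 0.0643 in G12V, lower in G12V. In an exact two-sided permutation test both gave p = 0.333, the smallest that 2 libraries against 2 can give, and the adjusted p over 20090 genes was 1. Neither direction was stable, since the difference turned for ZEB2 in the better-scoring 50% of each list (-0.0575) and with all transcript starts (-0.0147), and for SNAI2 at equal list size (0.0388) and within 50 kb (0.0242). The other 6 genes gave p = 0.667 for VIM and p = 1 for CDH1, CDH2, ZEB1, SNAI1 and TWIST1 in the same exact test.

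**Figure D1:**
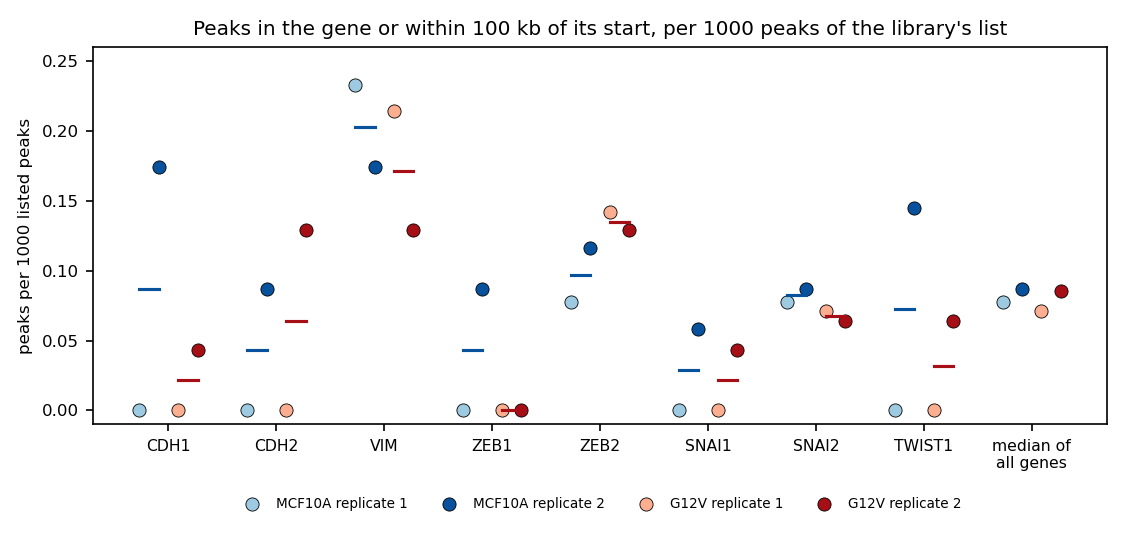
Peaks in each gene or within 100 kb of its start, per 1000 peaks of the library's list (vertical axis), for the 8 genes and for the median of all genes. Points are libraries and short lines are means of 2 libraries, and VIM had the highest density in each replicate 1 list while CDH1, CDH2, ZEB1, SNAI1 and TWIST1 were at 0 there.

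Each region was called by the libraries that had a peak in it. A gained region had peaks in both libraries of G12V but in none of MCF10A, a lost region the opposite, a shared region a peak in all 4, and a crossed region a peak in 1 replicate of each cell type with different numbers. None of the 45 member regions was gained, where 3.2% of all regions were, and none was crossed, where 1.47% were. A single region was lost, in VIM, against 2.14% of all regions. Shared regions numbered 2, near VIM and ZEB2, against 8.36% of all.

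Counted by gene, 0 of 8 had a gained region in the window, where 16% of all protein-coding genes had 1 or more. VIM alone had a lost region, against 10% of all genes, and VIM and ZEB2 had a shared region, against 39.1%. The 8 promoter regions included no gained, lost or shared region, the 16 distal regions within the genes held the lost region, and the 21 distal regions outside the genes held both shared regions.

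Of the rest, 28 regions (62.2%) were found in 1 library, compared with 56.4% of all regions. MCF10A replicate 2 was the only library with a peak at 14 of them (31.1% of the member regions, and 15.8% of all regions). G12V replicate 2 was the only library at 11 (24.4% and 34.6%). The member regions thus had a larger share seen in MCF10A replicate 2 alone, and a smaller share seen in G12V replicate 2 alone, than the genome as a whole. Regions seen in the replicate 2 lists of both cell types and in no other numbered 11 (24.4%, against 16.3%).

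**Figure D2:**
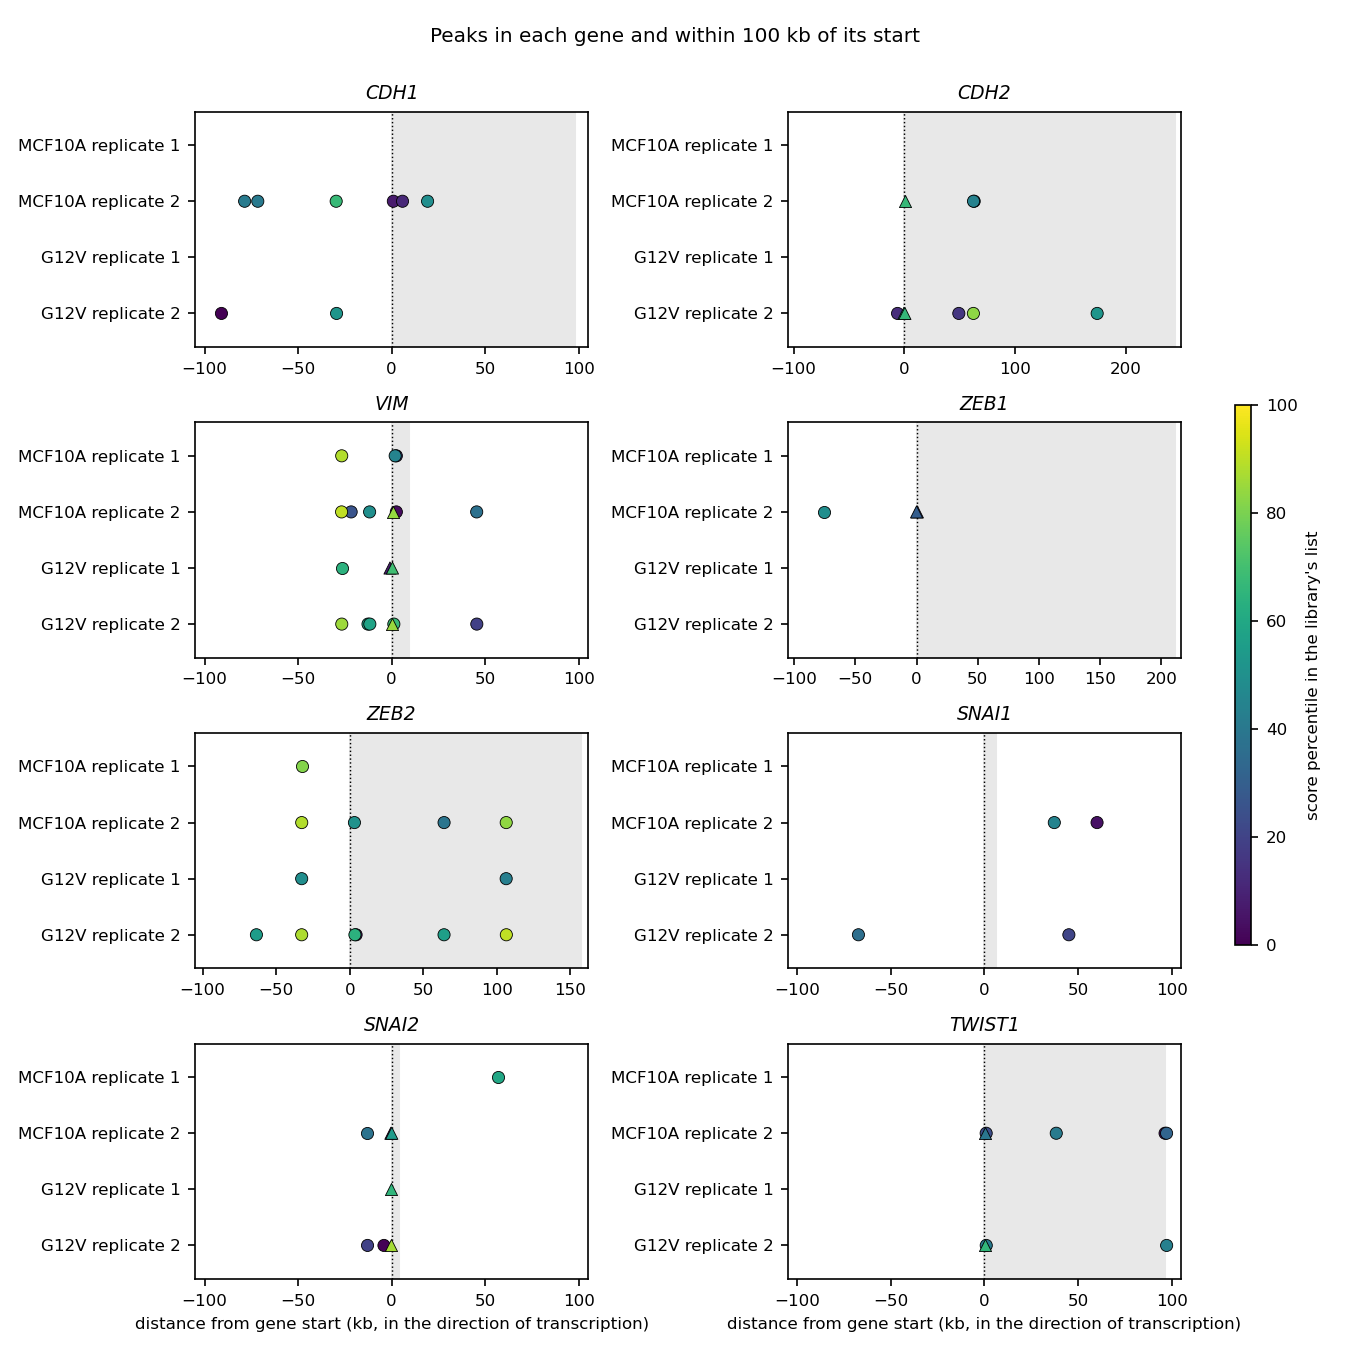
Positions of all peaks in the windows of the 8 genes, 1 panel per gene, with distance from the gene start in kb on the horizontal axis and the 4 libraries on the vertical axis. Triangles are promoter peaks, circles are distal peaks, grey marks the gene, and colour gives the score percentile; the replicate 1 rows are empty at CDH1, CDH2, ZEB1, SNAI1 and TWIST1.

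The replicate 2 lists, the longer list of each cell type, allowed the closest look at single loci. Of 31 member regions with a peak in MCF10A replicate 2, 15 (48.4%) had none in G12V replicate 2, where 33.6% of all such regions had none. Of 27 with a peak in G12V replicate 2, 11 (40.7%) had none in MCF10A replicate 2, against 51.9% of all. The 15 lay mainly at CDH1 (5), ZEB1 (3), SNAI1 (2), TWIST1 (2) and VIM (2), and the 11 lay mainly at CDH2 (4), ZEB2 (2) and SNAI1 (2), so that SNAI1 had as many on each side. With 1 library on each side these are differences between libraries, with no replicate behind them.

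At the 16 regions with a peak in both replicate 2 lists, scores were compared as percentiles within each list, 100 being the best-scoring peak. The percentile was higher in G12V at 10 of the 16, with a median difference of 7.88 points and a range of -18.3 to 39.0. Over all 22104 such regions it was higher in G12V at 63.1%, with a median difference of 4.93 points, so the member regions lay near the rest. Few of the 16 were seen again in the short lists. MCF10A replicate 1 had a peak at 2 (12.5%, against 37.4% of all such regions) and G12V replicate 1 at 5 (31.2%, against 40.8%).

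**Figure D3:**
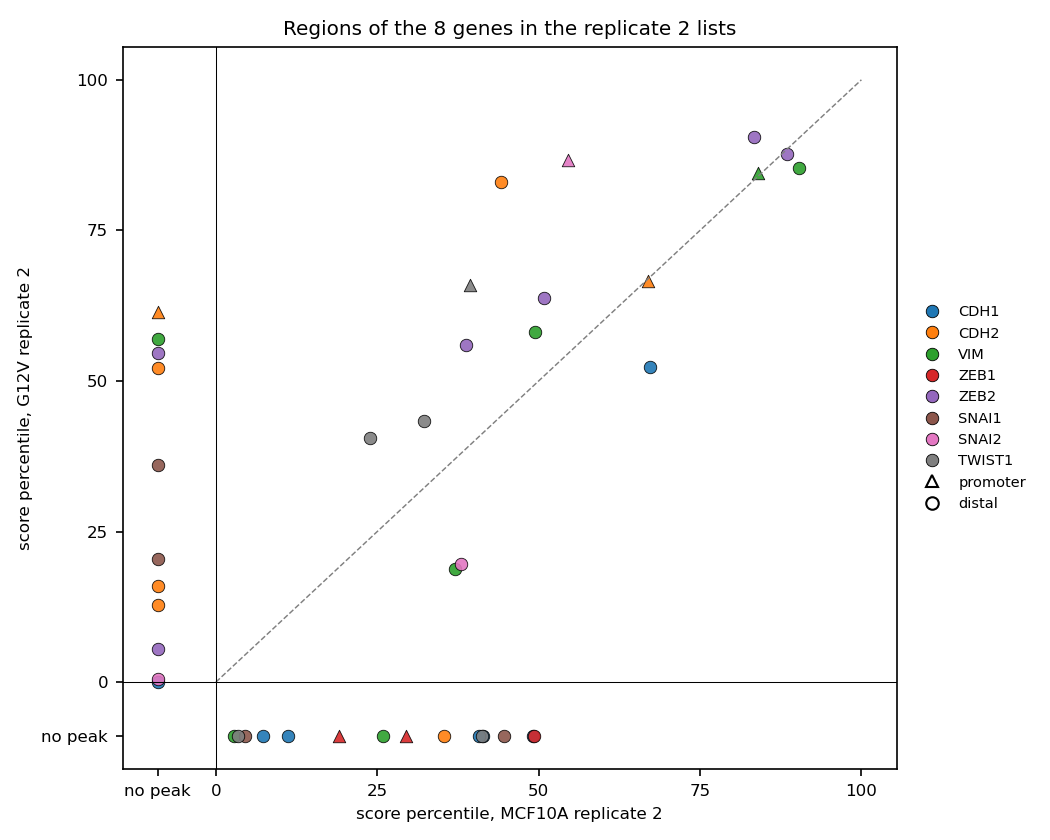
Score percentile of each member region in MCF10A replicate 2 (horizontal axis) and in G12V replicate 2 (vertical axis), coloured by gene, with triangles for promoters, circles for distal regions and a dashed line of equality. The CDH2 region at 62.5 kb (44.2 and 83.1) and the SNAI2 promoter (54.6 and 86.7) lie farthest above the line, and regions without a peak in 1 of the lists lie along the margins.

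A promoter was taken as 1000 bp upstream to 500 bp downstream of the gene start. No member had a promoter peak in MCF10A replicate 1, where 20.4% of all protein-coding genes had 1. In MCF10A replicate 2 there were 5 (CDH2, VIM, ZEB1, SNAI2 and TWIST1), where 41.1% of genes had 1. In G12V replicate 1 there were 2 (VIM and SNAI2), against 22.2%, and in G12V replicate 2 there were 4 (CDH2, VIM, SNAI2 and TWIST1), against 43.8%. CDH1, ZEB2 and SNAI1 had no promoter peak in any library, a pattern shared by 50.3% of all genes.

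The annotated gene start is the outermost one, and many genes have others. With the starts of all annotated transcripts counted, VIM had a promoter peak in all 4 libraries and ZEB2 had 1 in both replicate 2 libraries, while CDH1 and SNAI1 still had none. The numbers of members with a promoter peak were then 1, 6, 2 and 5 in MCF10A replicates 1 and 2 and G12V replicates 1 and 2, where 25.4%, 49.3%, 27.3% and 52.2% of all genes had 1.

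**Figure D4:**
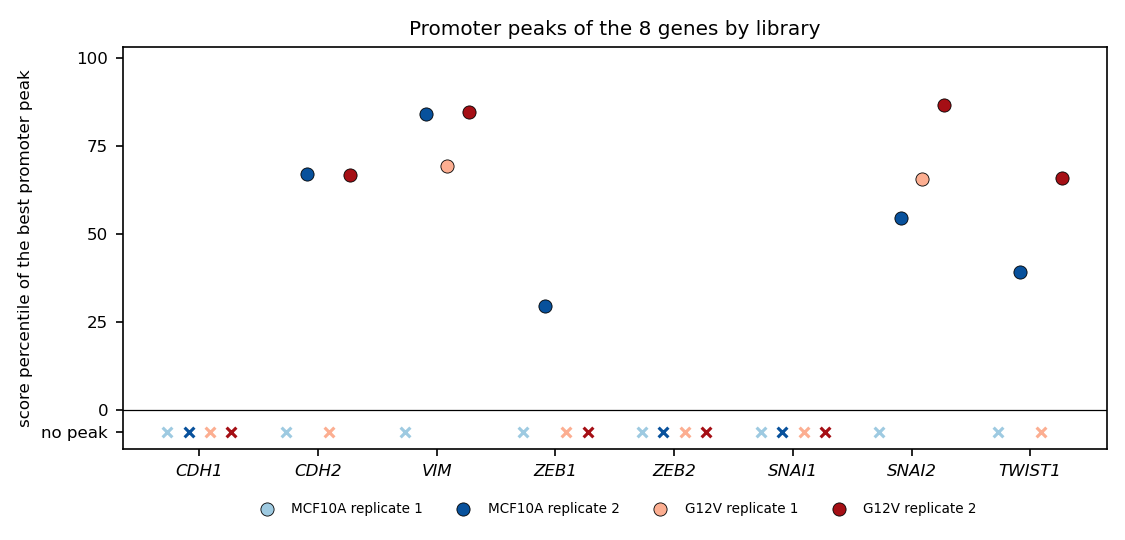
Score percentile of the best peak in the promoter of each of the 8 genes, by library, with crosses where the list has no peak. VIM and SNAI2 have a promoter peak in the same 3 libraries, CDH2 and TWIST1 in both replicate 2 libraries, and ZEB1 in MCF10A replicate 2.

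CDH1 (ENSG00000039068, chr16:68771195-68869440, plus strand) had 6 peaks in MCF10A replicate 2, 2 in G12V replicate 2 and 0 in both replicate 1 lists. The windows of 77.1% of all genes held fewer peaks in MCF10A replicate 2, and those of 15.4% held fewer in G12V replicate 2. The locus thus stood high in the ordering of genes in the MCF10A list and low in the G12V list, in 1 library of each. The 2 differed by -0.131 peaks per 1000 listed peaks.

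Within CDH1 itself, peaks were found in MCF10A replicate 2 alone. They lay at 0.912 kb in a coding exon (percentile 7.3), and in introns at 5.81 kb (11.2) and 19.2 kb (49.1). The first began 707 bp after the gene start, outside the promoter window, and it and the second were among the weaker peaks of that list. The strongest region of the window, at -29.6 kb (chr16:68741054-68742068), lay in an intron of CDH3, which encodes P-cadherin, a cadherin of basal epithelial cells. It had percentile 67.3 in MCF10A replicate 2 and 52.3 in G12V replicate 2. Further peaks at -78.6 and -71.5 kb, also in CDH3 introns, were found in MCF10A replicate 2 only (41.3 and 40.8), and a peak at -90.9 kb in G12V replicate 2 only, at the very bottom of its list (0.0761).

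CDH2 (ENSG00000170558, chr18:25512843-25757910, minus strand) showed the opposite ordering, with 3 peaks in MCF10A replicate 2, 6 in G12V replicate 2 and 0 in both replicate 1 lists. At its promoter, the region at 0.697 kb (chr18:25756767-25757660) had percentile 66.9 in MCF10A replicate 2 and 66.6 in G12V replicate 2. A second promoter region at -0.308 kb (chr18:25757825-25758611) was found in G12V replicate 2 alone (61.5). The percentiles at 0.697 kb were thus alike in the long lists of both cell types, but the peaks did not cover the gene start. The MCF10A replicate 2 peak began at 491 bp, just inside the promoter window, which ends at 500 bp. The G12V replicate 2 peak there began at 250 bp. The G12V replicate 2 peak at -0.308 kb ran from -701 to 85 bp and was the only CDH2 peak over the gene start. In lists of equal length, only the MCF10A replicate 2 peak at 0.697 kb remained at this promoter.

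The intronic CDH2 region at 62.5 kb (chr18:25695049-25695696) had a score of 66.61 in MCF10A replicate 2 and 164.09 in G12V replicate 2. Its percentile was 44.2 and 83.1, the largest difference among the 16 regions that both lists held. In G12V replicate 2 further intronic peaks lay at 49.3 kb (16) and 174 kb (52.1), and 1 lay upstream at -6.02 kb (12.8). In MCF10A replicate 2 the only other peak, at 63.2 kb (35.3), lay beside the 62.5 kb region. None of the CDH2 regions had a peak in a replicate 1 list.

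VIM (ENSG00000026025, chr10:17270240-17279592, plus strand) was the gene with most regions, 9, and with peaks in every library (3, 6, 3 and 6). Its promoter region at 0.69 kb (chr10:17270165-17271694), over coding sequence at the start of VIM and an exon of the antisense transcript VIM-AS1, had percentile 84.0 in MCF10A replicate 2, 69.2 in G12V replicate 1 and 84.5 in G12V replicate 2. MCF10A replicate 1 had no peak in it. That library instead had peaks just downstream, at 1.89 kb (45.0) and 2.52 kb (15.5). Both lay in VIM coding exons and in the promoter of VIM-AS1. A promoter peak at -0.889 kb (7.92) was found in G12V replicate 1 only.

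The region at 2.52 kb (chr10:17272506-17273005), distal for VIM but in the promoter of VIM-AS1, was the 1 lost region among the 8 genes. It had percentile 15.5 in MCF10A replicate 1 and 2.8 in MCF10A replicate 2, near the bottom of both lists, and no peak in G12V. When peaks within 200 bp of each other were merged, it joined the promoter region, which then had a peak in all 4 libraries. It was also absent from the better-scoring 50% of the lists, so the loss of a peak there held only for the full lists with peaks kept apart.

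The strongest VIM region in every list but G12V replicate 1, where the promoter scored higher (69.2), was shared by all libraries and lay at -26.7 kb (chr10:17243030-17244060), in the promoter of TRDMT1, a tRNA methyltransferase gene. Its percentile was 88.5 and 90.4 in MCF10A replicates 1 and 2 and 63.9 and 85.3 in G12V replicates 1 and 2. Regions at -11.7 kb (49.4 and 58.1) and 45.5 kb (37.0 and 18.8) were found in replicate 2 of both cell types. At -21.6 kb there was a peak in MCF10A replicate 2 only (25.9), and at -12.6 kb in G12V replicate 2 only (56.9).

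ZEB1 (ENSG00000148516, chr10:31607424-31818742, plus strand) had 3 peaks, all in MCF10A replicate 2, and none in the other 3 lists. Both promoter regions, at 0.024 kb (chr10:31607199-31607697) and 0.697 kb (chr10:31607909-31608333), were weak, with percentiles 29.5 and 19.0. The strongest region lay at -75.4 kb (49.2), in introns of the non-coding ZEB1-AS1 and LINC02664. A promoter peak in MCF10A replicate 2 alone was seen at 4.06% of all genes. None of the 3 ZEB1 peaks was among the best 12888 of that list, so in lists of equal length ZEB1 had no peak anywhere.

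ZEB2 (ENSG00000169554, chr2:145121931-145278624, minus strand) had 1 peak in MCF10A replicate 1, 4 in MCF10A replicate 2, 2 in G12V replicate 1 and 6 in G12V replicate 2. The shared region at -32.6 kb (chr2:145310924-145311566), in an intron of the non-coding LINC01412, had percentile 81.5 and 88.5 in MCF10A and 49.1 and 87.7 in G12V. The intronic region at 106 kb (chr2:145171722-145172664) had no peak in MCF10A replicate 1, percentile 83.4 in MCF10A replicate 2, 42.7 in G12V replicate 1 and 90.5 in G12V replicate 2. These were the strongest ZEB2 regions in each list that held them, and neither separated the cell types.

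Weaker ZEB2 regions were found in replicate 2 of both cell types, at 64.1 kb in an intron (38.8 in MCF10A and 55.9 in G12V) and at 3.47 kb in a coding exon shared with the antisense transcript ZEB2-AS1 (50.9 and 63.7). Peaks at 4.34 kb (5.52) and -63.4 kb (54.7) were seen in G12V replicate 2 only. All 3 regions inside the gene that both replicate 2 lists held thus had the higher percentile in G12V, by 7.1, 17.1 and 12.8 points, and the region upstream did not (88.5 and 87.7). Differences of this size were usual, since over all regions in both lists the middle 50% ran from -5.85 to 22.4 points.

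SNAI1 (ENSG00000124216, chr20:48599517-48605423, plus strand), the gene of Snail, had no peak in its body or promoter in any library. Its 4 regions were each found in 1 library. MCF10A replicate 2 had peaks at 37.3 kb (44.6) and 60.2 kb (4.43), and G12V replicate 2 had peaks at -67.3 kb (36), in the promoter of SPATA2, and at 45.1 kb (20.5). All scored below the median of their list, and none recurred in a second library.

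SNAI2 (ENSG00000019549, chr8:49830157-49834299, minus strand), the gene of Slug, had a promoter region at -0.123 kb (chr8:49833866-49834979) that had a peak in 3 libraries. It had no peak in MCF10A replicate 1, percentile 54.6 in MCF10A replicate 2, 65.6 in G12V replicate 1 and 86.7 in G12V replicate 2. The scores of the best peak were 77.26 in MCF10A replicate 2, 74.53 in G12V replicate 1 and 191 in G12V replicate 2. The peak widths were 595, 446 and 1114 bp in the same order, with a second, minor peak (0.67) in MCF10A replicate 2. Both G12V percentiles thus lay above that of MCF10A replicate 2, while MCF10A replicate 1, the shortest list, had no peak to compare. The score itself was no higher in G12V replicate 1 than in MCF10A replicate 2. A promoter peak in these 3 libraries and not in MCF10A replicate 1 was seen at 6.82% of all genes. Of all regions in both replicate 2 lists, 63.1% had the higher percentile in G12V. The share of genes with the same ordering is not given here.

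In lists limited to the best 12888 peaks, the SNAI2 promoter was the 1 gained region among 11 member regions, where 5.24% of all regions were gained, 5.19% lost and 14.9% shared. None of the 11 was lost, and 2 were shared. The call came from the MCF10A replicate 2 peak falling outside that limit, so in the full lists the region counted as present in 3 libraries. Elsewhere at SNAI2, a region at -12.9 kb went the other way (38.0 in MCF10A replicate 2 and 19.6 in G12V replicate 2). Single peaks lay at 56.7 kb in MCF10A replicate 1 (59.5) and at -4.11 kb in G12V replicate 2 (0.5).

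TWIST1 (ENSG00000122691, chr7:19060614-19157259, minus strand) is annotated here with a long transcript that extends the gene to 96.6 kb. It had 5 peaks in MCF10A replicate 2, 3 in G12V replicate 2 and none in replicate 1 of either cell type. The promoter region at 0.0855 kb (chr7:19156667-19157680) had percentile 39.3 in MCF10A replicate 2 and 66.0 in G12V replicate 2. The coding exon region at 0.93 kb had 23.8 and 40.6, and the region at 97.3 kb had 32.3 and 43.3. All 3 had the higher percentile in G12V replicate 2, while peaks at 38.4 kb (41.2) and 96.5 kb (3.48) were found in MCF10A replicate 2 only. Of all regions that both lists held, 63.1% had the higher percentile in G12V.

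The percentiles of the promoter peaks were compared with those of all other protein-coding genes, with 0 where there was no peak, by Euclidean distance over the 4 libraries. Closest to CDH2 were EEF1AKMT2 with the overlapping ENSG00000258539 (distance 0.602 points) and SLC25A16 (0.618). Closest to VIM were SLTM (2.15), GLCE (3.52) and WDR5B (3.66). For SNAI2 they were CHN1 (5.0), MTX2 (5.55) and TMEM169 (6.2), and for TWIST1 they were TTC4 (0.687), HMCES (1.18) and FBXO25 (1.2). The distance is a description of 4 values per gene.

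The wider pathway was described with 38 other genes, namely cadherins and catenins, further EMT transcription factors, epithelial factors that oppose EMT, the TGF-beta pathway and mesenchymal proteins. Their windows held 316 regions, of which 9 were gained, 10 lost and 25 shared, where 3.2%, 2.14% and 8.36% of all regions were. A gained region was found near 8 of the 38 genes and a lost region near 8, where 16% and 10% of all genes had 1. A promoter peak at the gene start was found for 3, 14, 7 and 18 of the 38 in MCF10A replicates 1 and 2 and G12V replicates 1 and 2, where 20.4%, 41.1%, 22.2% and 43.8% of all genes had 1. TGFBR2, a TGF-beta receptor, had it in all 4. With all transcript starts counted there were 8, 22, 11 and 30 of the 38, where 25.4%, 49.3%, 27.3% and 52.2% of all genes had 1.

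Some of these had changed regions in the gene or promoter. Gained regions lay in TGFBI, a TGF-beta-induced matrix protein (percentiles 91.1 and 90.4 in G12V replicates 1 and 2), in FN1, fibronectin (40.1 and 74.0), in TCF4, an E-box binding factor (2.32 and 66.8), and at the promoter of SPARC, a secreted matrix glycoprotein (51.5 and 27.4). The TGFBI region stood near the top of both G12V lists. Lost regions lay in ESRP1 (69.0 and 60.7 in MCF10A replicates 1 and 2) and ESRP2 (20.8 and 5.76), the epithelial splicing regulators, and 2 lay in CTNND1, p120 catenin (16.9 and 48.8, then 7.13 and 75.3). Among the marker lists, the promoter of ITGB4, an epithelial integrin, was lost (10.4 and 74.3) and a region in TEK, an endothelial receptor, was gained (70.4 and 70.9). Counted over the whole windows, the calls went both ways within some lists and genes and 1 way in others. The TGF-beta list had 4 gained and 0 lost regions, and the cadherin and catenin list 0 gained and 3 lost. The list of further EMT transcription factors had 2 gained and 1 lost. The mesenchymal list had 2 gained and 3 lost regions, with 1 of each near FN1 and 1 gained and 2 lost near SPARC. The list of factors that oppose EMT had 1 gained region, near GRHL2, and 3 lost, and ITGB4 had 1 gained region beside the lost promoter. Their part in the values at the 8 genes was not tested.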

How the data were processed

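The deposited files were 1 ATAC-seq peak list per library, for 2 MCF10A and 2 G12V libraries grouped by their labels. The authors aligned uniquely mapping reads to hg19 with bowtie (0.12.9), moved read starts to the centre of the transposon event and called peaks with MACS (1.4.2; tag size 51, shift size 75, no model, local window 25000 bp, p 0.0001). The authors deposited a score for each peak, MACS's -log10 p-value multiplied by 10, which depends on depth and was never below 40. Scores were therefore used as percentiles within a list. The study pooled replicates for its own calls.

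Peaks on 22 autosomes and X were kept (12888 to 46673 per library) and merged where they overlapped by 1 bp. Genes came from GENCODE release 44 on GRCh37, where the study used RefSeq. Densities were tested by exact permutation with Benjamini-Hochberg adjustment. All 8 genes were named, with each promoter, gained, lost and shared region and otherwise the best region, and further regions mostly by counts. The members, lists and rules were chosen with earlier results of these data known. The alternatives were equal list sizes, the better-scoring 50%, 50% overlap, merging within 200 bp, leaving out libraries, replicate pairs, all transcript starts, windows of 50 kb and a peak in either replicate. Python 3.11.15, numpy 2.4.6, pandas 2.3.3, pysam 0.24.0 and matplotlib 3.10.9 were used, and calling was tested on simulated data. The promoter sequence of 1 gene is not reported here.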

Additional observations from a re-analysis of the deposited data

How the results depend on the processing

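Counts of called regions moved most when a short replicate 1 list was left out or a peak in either replicate was enough. The share of all regions called moved with the setting too. At equal list size 5.24% were gained, 5.19% lost and 14.9% shared, where the full lists gave 3.2%, 2.14% and 8.36%. Apart from the replicate 2 lists compared above, that share is not given for the other alternatives. The region counts below are therefore not particular to the 8 genes. Gained regions, 0 as reported, were 1 with the same number of best peaks per library, 12 with a peak in either replicate, and 0 to 11 on leaving out 1 library (3 without MCF10A replicate 2, 11 without G12V replicate 1, 1 without G12V replicate 2). Lost regions, 1 as reported, were 0 at equal list size, in the better-scoring 50% and with merging within 200 bp, 17 with a peak in either replicate, and 1 to 15 on leaving out 1 library (15 without MCF10A replicate 1, 3 without MCF10A replicate 2). Shared regions, 2 as reported, were 1 in the better-scoring 50%, 2 to 5 on leaving out 1 library (5 without MCF10A replicate 1), and 4 with windows of 100 kb beyond both ends of the gene, an alternative chosen after seeing the data. Promoters with a peak, 5 in MCF10A and 4 in G12V, were 2 and 2 at equal list size. They were 3 in MCF10A in the better-scoring 50%, 0 to 5 on leaving out 1 library in MCF10A (0 without MCF10A replicate 2) and 2 to 4 in G12V (2 without G12V replicate 2).

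The replicate numbers are shared by the groups, and no source says what they stand for. Deviations of same-numbered libraries correlated at 0.143 over all regions and 0.301 over the member regions. With the replicate number as a block, the replicate 1 pair gave 4 gained, 3 lost and 2 shared regions and 0 MCF10A and 2 G12V promoters with a peak, and the replicate 2 pair gave 11 gained, 15 lost and 16 shared regions. The mean difference in peak density within pairs was -0.145. With 1 library of each cell type in every pair it must equal the difference without the block, so it is no check.

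The difference in peak density over the 8 genes, -0.145 as reported with a pooled SD of 0.284, did not keep its sign. It was 0.113 in the better-scoring 50%, 0 at equal list size, and -0.415 to 0.126 on leaving out 1 library (0.126 without MCF10A replicate 2, and beyond the pooled SD without MCF10A replicate 1). Per gene, leaving out 1 library gave -0.153 to 0.0214 for CDH1, -0.0435 to 0.085 for CDH2, -0.0749 to 0.0102 for VIM, -0.0366 to 0.0214 for SNAI1 and -0.113 to 0.0321 for TWIST1. The sign turned without MCF10A replicate 2 for CDH1, SNAI1 and TWIST1, without MCF10A replicate 1 (-0.0228) or G12V replicate 2 for CDH2, without G12V replicate 1 for SNAI1 (0.0138) and without G12V replicate 2 for VIM. It turned in the better-scoring 50% for VIM (0.114), ZEB2 (-0.0575) and TWIST1 (0.0214), at equal list size for SNAI2 (0.0388) and within 50 kb for SNAI2 (0.0242). It also turned with all transcript starts for ZEB2 (-0.0147), and with windows beyond both gene ends for CDH2 (-0.0509) and ZEB2 (-0.0147). The cause was not tested.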

Other observations

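Beyond the windows described above, 15 further regions lay within 100 kb of the far end of CDH1, CDH2, ZEB1, ZEB2 or TWIST1, of which 0 were gained, 0 lost and 2 shared. Downstream of ZEB1, at 285 kb from its start (chr10:31892259-31892880), a shared region over a non-coding transcript had percentile 34.8 and 57.6 in MCF10A replicates 1 and 2 and 74.4 and 90.4 in G12V replicates 1 and 2. This region lay 73.8 kb beyond the end of ZEB1, and a link to ZEB1 was not tested. The other shared region, at 189 kb from the start of ZEB2, was the promoter of GTDC1 (91.7, 93.2, 90.5 and 96.3 in the same order).

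Downstream of CDH2, at 339 kb from its start (chr18:25418930-25419774), an intergenic region had percentile 97.7 and 91.8 in MCF10A replicates 1 and 2, none in G12V replicate 1 and 76.3 in G12V replicate 2. Downstream of TWIST1, at 139 kb in an intron of HDAC9 (chr7:19017652-19018276), a region had no peak in MCF10A replicate 1, 37.7 in MCF10A replicate 2, 68.9 in G12V replicate 1 and 75.9 in G12V replicate 2. These regions were chosen after their values were seen, and none was tested.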
